A study of Mus musculus with 4 samples.

Results

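The imprinted domains described here are those of Gnas, Igf2r with Airn, Grb10, Plagl1, Peg13, Slc38a4, Dlk1 with Meg3, and Rasgrf1, 10 mouse genes taken by name. Their members were the CpGs that lie in the mm10 body of a gene or within 10 kb of either end, with the reads of both strands summed and at least 10 reads in every library. These windows held 1286 of the 1600691 nuclear CpGs analysed. CpGs shared by the overlapping Igf2r and Airn windows were counted once in that total and under both genes where a gene is described.

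The assay was reduced representation bisulfite sequencing (RRBS), in which restriction fragments are bisulfite treated so that unmethylated cytosines are read as thymine. The DNA came from liver of 6-week-old C57BL6/N mice. There were 2 libraries of Pnpla7-/- mice (KO), which lack the lysophospholipase gene Pnpla7, and 2 libraries of Pnpla7+/+ mice (WT), with no further allele, agent or treatment in the labels. The study compared the liver methylomes of these genotypes. The labels state neither the sex of the mice, nor how the allele was made, nor that the 2 libraries of a genotype came from different animals. A methylation track gives no expression level, so the loss of Pnpla7 could not be checked on these values, and neither could the tissue by expression of its markers. KO libraries held 59953688 and 60535892 reads over cytosines, against 50413170 and 59437109 in WT libraries. The median analysed CpG had 25 reads in each KO library, and 21 and 25 reads in the WT libraries.

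In imprinting, a gene is expressed from one parental allele, and the choice is carried by a differentially methylated region, a CpG-rich stretch that is methylated on one parental chromosome and bare on the other. Some of these regions are set in the egg or the sperm and survive the wave of demethylation after fertilisation, and others gain methylation on one allele later in development. In DNA from both alleles either kind reads as intermediate methylation. Intermediate methylation can also come from a mixture of cells, and the tracks carry no allele information, so the 2 sources cannot be told apart here.

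Promoters are shown first, since the members differ most plainly there. Each sequence is the RefSeq promoter on build GRCm38.p6, 250 bases before to 50 after an annotated start, written 5′ to 3′ on the strand of the gene. The CG of every analysed CpG is in capitals, and other bases are in lower case. Those of Igf2r, Plagl1, Meg3 and the most upstream Gnas start were partly methylated in every library, whereas those of Grb10 and the most downstream Gnas start were almost bare.
Gnas, most upstream start, plus strand, chr2:174284070-174284369: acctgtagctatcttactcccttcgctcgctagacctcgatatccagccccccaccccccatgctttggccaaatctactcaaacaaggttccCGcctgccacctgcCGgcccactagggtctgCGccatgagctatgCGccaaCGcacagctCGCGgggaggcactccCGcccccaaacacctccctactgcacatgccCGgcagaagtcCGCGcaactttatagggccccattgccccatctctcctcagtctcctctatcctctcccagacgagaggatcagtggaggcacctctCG
Gnas, most downstream start, plus strand, chr2:174329756-174330055: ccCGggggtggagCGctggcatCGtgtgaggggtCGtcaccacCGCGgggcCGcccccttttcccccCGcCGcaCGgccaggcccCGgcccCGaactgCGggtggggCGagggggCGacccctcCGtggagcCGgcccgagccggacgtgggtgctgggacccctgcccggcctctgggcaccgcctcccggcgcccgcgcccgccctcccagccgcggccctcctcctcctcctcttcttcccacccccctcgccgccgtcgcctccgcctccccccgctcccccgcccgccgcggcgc
Igf2r, minus strand, chr17:12769657-12769956: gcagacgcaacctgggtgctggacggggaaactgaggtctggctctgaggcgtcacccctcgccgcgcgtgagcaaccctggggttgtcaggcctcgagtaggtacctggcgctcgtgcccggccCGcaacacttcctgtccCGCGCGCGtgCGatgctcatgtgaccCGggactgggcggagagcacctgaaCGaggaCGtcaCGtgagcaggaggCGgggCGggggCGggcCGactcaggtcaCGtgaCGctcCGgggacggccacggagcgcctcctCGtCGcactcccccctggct
Plagl1, plus strand, chr10:13090582-13090881: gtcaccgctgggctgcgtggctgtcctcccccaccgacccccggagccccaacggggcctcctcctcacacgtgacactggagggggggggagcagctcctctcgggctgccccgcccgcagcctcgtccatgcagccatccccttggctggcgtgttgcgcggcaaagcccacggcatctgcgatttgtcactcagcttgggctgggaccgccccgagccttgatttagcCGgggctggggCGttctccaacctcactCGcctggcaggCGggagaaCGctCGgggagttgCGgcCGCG
Meg3, plus strand, chr12:109540746-109541045: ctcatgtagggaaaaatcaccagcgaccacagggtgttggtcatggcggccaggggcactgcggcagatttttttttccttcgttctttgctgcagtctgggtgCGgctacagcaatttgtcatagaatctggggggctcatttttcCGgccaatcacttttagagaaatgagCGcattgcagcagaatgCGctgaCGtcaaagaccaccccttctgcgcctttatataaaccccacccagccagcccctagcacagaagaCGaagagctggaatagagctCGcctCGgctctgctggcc
Grb10, upstream start, minus strand, chr11:12037371-12037670: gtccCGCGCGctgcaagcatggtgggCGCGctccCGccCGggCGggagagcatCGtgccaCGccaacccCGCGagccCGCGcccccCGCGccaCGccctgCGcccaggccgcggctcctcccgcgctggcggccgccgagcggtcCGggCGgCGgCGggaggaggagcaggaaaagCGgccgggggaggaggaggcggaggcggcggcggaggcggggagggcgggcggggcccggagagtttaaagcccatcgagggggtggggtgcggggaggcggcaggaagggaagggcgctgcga

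RefSeq gave 16 such promoters for 9 of the members, and 8 of them held at least 3 analysed CpGs. The enzymes used, MspI and TaqI, cut at CCGG and TCGA, which read the same on both strands. CCGG occurred in 52.8% of all 32851 promoters and TCGA in 21.99%. The Gnas upstream promoter above held 2 CCGG and 1 TCGA, and the Gnas downstream promoter held 6 CCGG and no TCGA. Over the 12 analysed CpGs of the Gnas upstream promoter the methylation level was 37.3% and 41.0% in KO libraries, against 40.5% and 42.7% in WT libraries. Over the 17 of the Gnas downstream promoter it was 0.484% and 0.647% in KO libraries, against 0.213% and 0.194% in WT libraries. One gene thus held a partly methylated and a nearly bare promoter in all 4 libraries.

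Among the partly methylated promoters, that of Igf2r held 19 analysed CpGs at 34.5% and 40.5% in KO libraries, against 47.1% and 37.0% in WT libraries. The 9 CpGs of the Plagl1 promoter stood at 37.0% and 40.3% in KO libraries, against 40.5% and 37.0% in WT libraries. The 8 of the Meg3 promoter stood at 39.3% and 34.1% in KO libraries, against 26.8% and 39.8% in WT libraries. The genotypes overlapped at all 3. The Slc38a4 promoter, with 4 analysed CpGs, stood at 45.3% and 60.2% in KO libraries, against 44.95% and 33.7% in WT libraries. There both KO libraries were above both WT libraries, by 13.8 points over summed reads (95% interval -0.226 to 27.7, adjusted p = 0.753). The first KO library was barely above the first WT library, and the share of all promoters that separate the genotypes was not counted. In the block of 5 CpGs at this start, described below, which holds these 4, the genotypes overlapped. The upstream Grb10 promoter was bare over 23 CpGs, at 0.803% and 0.927% in KO libraries, against 0.899% and 0.693% in WT libraries. The Rasgrf1 promoter was also nearly bare over 10 CpGs, at 0% and 1.75% in KO libraries, against 3.17% and 1.83% in WT libraries. The value of the first KO library was 0 of 277 reads summed over the 10 CpGs, which would allow up to 1.08% if these counts were independent. Neighbouring CpGs share reads, so the limit is looser than that. Of the 11316 promoters measured in the genome, 88.3% were below 10% and 4.41% lay between 25% and 75%, so 5 of the 8 member promoters belonged to the smaller class.

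Over all 10 windows, 598 of the 1286 CpGs (46.5%) had a mean level over the 4 libraries between 25% and 75%, against 13.6% of all analysed CpGs. A further 394 (30.6%) were below 20%, against 44.99% of all CpGs, and 245 (19.1%) were above 80%, against 36.4%. The intermediate share was 87.0% in the Peg13 window (40 of 46 CpGs), 80.8% in Plagl1 (42 of 52), 67.8% in Airn (82 of 121), 60.8% in Meg3 (31 of 51), 57.7% in Gnas (240 of 416) and 56.5% in Igf2r (87 of 154). It was 43.4% in Grb10 (95 of 219), 23.02% in Slc38a4 (29 of 126), 15.3% in Dlk1 (15 of 98) and 12.2% in Rasgrf1 (12 of 98). Among 22628 gene windows with at least 20 analysed CpGs the median share was 9.38%. Only 2 of those windows had a higher share than Peg13 and only 8 a higher share than Plagl1, but 3754 exceeded Slc38a4, 6994 exceeded Dlk1 and 8975 exceeded Rasgrf1.

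**Figure D1:**
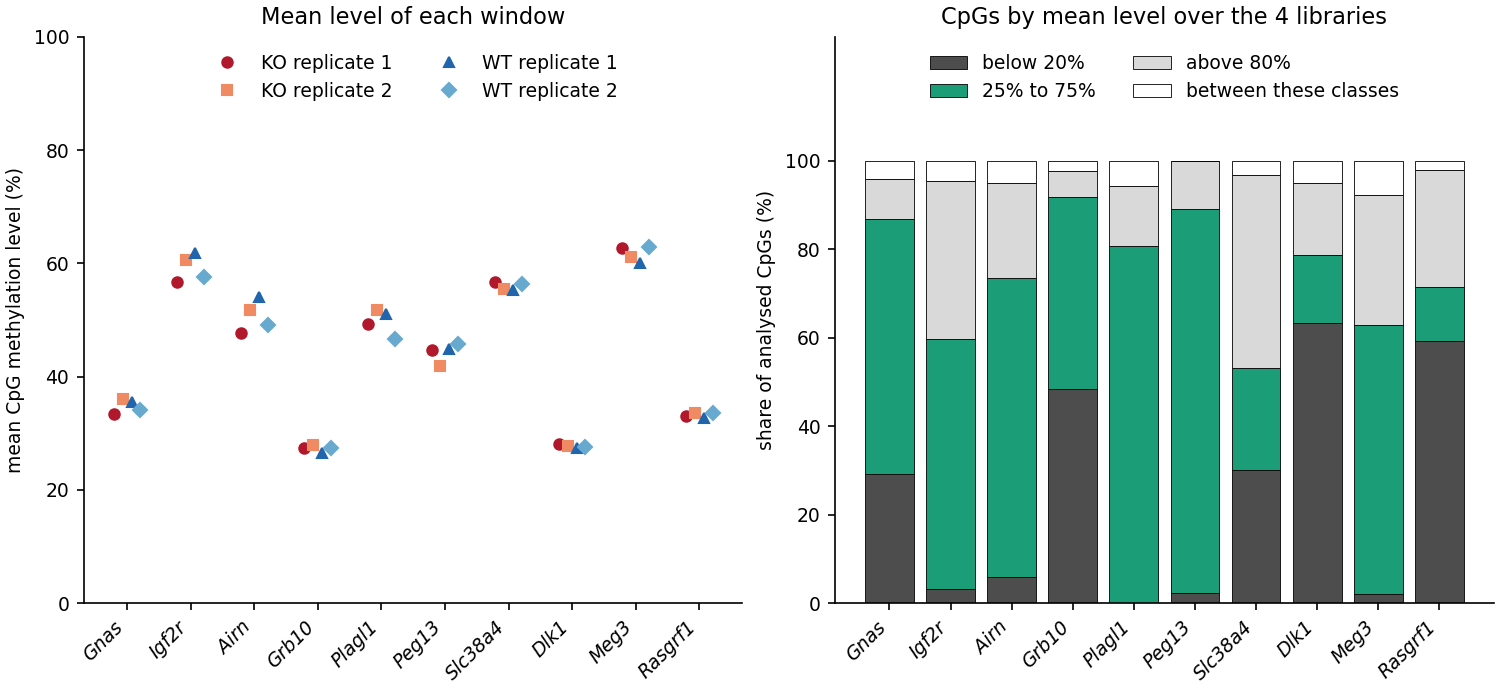
Mean CpG methylation level of each window in each library (left, %, one symbol per library, KO left of WT) and the share of its analysed CpGs by mean level over the 4 libraries (right, %). The libraries of one window lie close together, and CpGs of 25% to 75% make up 87.0% of the Peg13 window and 12.2% of the Rasgrf1 window.

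The mean level over the 1286 CpGs was 40.1% and 41.3% in KO libraries, against 40.9% and 40.3% in WT libraries. The genotypes averaged 40.7 ± 0.911% in KO and 40.6 ± 0.416% in WT (SD, n = 2 each), a difference of 0.105 points (exact permutation test, two-sided, p = 1). With 2 libraries against 2 the smallest p that test can give is 0.33. Over all CpGs the difference was 0.337 points, with 45.2 ± 0.0363% in KO and 44.8 ± 0.151% in WT (SD, n = 2 each). By gene, 6 of the 10 KO means were above the WT mean, and the differences ran from -2.03 points in Peg13 to 1.65 points in Plagl1. In Dlk1 both KO libraries were above both WT libraries, as in 24.7% of all gene windows. In Peg13 both were below, as in 13.5% of all gene windows.

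Each feature was then tested for a genotype difference by fitting its methylated and unmethylated read counts in a quasi-binomial model with a moderated dispersion, followed by Benjamini-Hochberg adjustment over the whole genome. A feature was called where the adjusted p was under 0.05 and the genotypes were 10 or more percentage points apart. None of the 1152 member CpGs that could be tested was called, against 0.000712% of CpGs genome-wide. At an unadjusted p under 0.05 there were 38 of them (3.30%), against 3.85% of all CpGs, and Fisher's exact test on summed reads called 0. None of 105 tiles of 1 kb was called, against 0.088% of all tiles. At an unadjusted p under 0.05 there were 5 member tiles (4.76%), against 6.31% of all tiles, and Fisher's exact test called 0. No member tile differed by 10 points or more, and the lowest adjusted p was 0.317. None of the 10 gene windows was called, against 0.0% of all 30562 gene windows. None had an unadjusted p under 0.05, against 4.58% of all gene windows, and Fisher's exact test called 0. Their differences on summed reads ran from -3.52 points in Airn to 3.08 points in Dlk1, so none could meet the 10-point minimum. None of the 8 member promoters was called, against 0.0% of 10776 promoters, with 0 at an unadjusted p under 0.05, against 6.70% of all promoters, and 0 by Fisher's exact test. A miss of the threshold does not show that the genotypes were alike. The intervals below give the sizes still possible under the moderated dispersion. CpGs on one fragment share reads, so summed reads are not independent counts.

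Within the windows, runs of at least 5 analysed CpGs at 25% to 75%, each within 500 bp of the one before, were taken as blocks. The level that defined them was averaged over all 4 libraries, so it is a property of how they were chosen, while the difference between genotypes was not used. The genome held 6063 blocks, and 24 of them, with 510 CpGs, lay in member windows. None of the 24 was called, against 0.363% of all blocks. At an unadjusted p under 0.05 there were 2 (8.33%), against 9.22% of all blocks. Fisher's exact test on summed reads called 1, lower in KO, against 4.68% of all blocks called lower by that test.

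Gnas encodes the alpha subunit of the stimulatory G protein and, from upstream starts, the proteins NESP55 and XLalphas, with different parental expression for each. Its window was the richest of the 10, with 416 analysed CpGs and 8 blocks. The block at chr2:174297978-174300606 held 96 CpGs, more than any other of the 6063 blocks, and lay 13658 to 16286 bp downstream of the most upstream annotated start. Its level was 40.9% and 45.6% in KO libraries, against 44.9% and 44.1% in WT libraries. The difference was -1.25 points (95% interval -4.79 to 2.29, adjusted p = 0.872), with both WT libraries between the KO libraries, and 1.17 points without the first KO library.

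The block of 64 CpGs at chr2:174284163-174286151, which spans the most upstream Gnas start, stood at 33.8% and 42.1% in KO libraries, against 42.5% and 38.5% in WT libraries. Its difference was -2.38 points (95% interval -7.74 to 2.97, adjusted p = 0.824) and 1.74 points without the first KO library, and the genotypes overlapped. The block of 29 CpGs at chr2:174327850-174328535 lies just past the annotated start at position 174327768, in the part of the locus known as exon 1A. It stood at 37.1% and 39.2% in KO libraries, against 37.0% and 36.6% in WT libraries, the narrowest spread of the 24 blocks. Both KO libraries were above both WT libraries, as in 18.6% of all blocks, by 1.27 points over summed reads (95% interval -2.76 to 5.30, adjusted p = 0.889). Single CpGs within it differed in both directions. That 43.539 kb from the most upstream start averaged 43.2% in KO and 24.3% in WT, and that at 43.682 kb 30.3% in KO and 42.2% in WT. Just past the block, the CpGs from 44.224 to 44.418 kb were each lower in KO. The next one, at 44.422 kb, was higher, at 35.5% in KO and 26.7% in WT.

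The Gnas block with the lowest p was a short one of 15 CpGs at chr2:174297007-174297394, just upstream of the 96-CpG block. Its level was 40.1% and 43.0% in KO libraries, against 32.8% and 31.2% in WT libraries, with no overlap between genotypes. The difference of 9.66 points (95% interval 1.45 to 17.9) had an unadjusted p of 0.0255 and an adjusted p of 0.448. The 96 CpGs beside it did not share that direction. Within the 15-CpG block the difference was uneven. The CpG 12.968 kb from the most upstream start averaged 63.3% in KO and 22.5% in WT. That at 12.828 kb averaged 38.0% in KO and 49.4% in WT. Both were picked with their values known, and their reads per library are not given here. The CpG at 12.968 kb is not among those of largest difference described later, which needed a minimum depth in every library. Neighbouring CpGs share reads, so its values are not independent of those beside it. The remaining 4 Gnas blocks had 5 to 7 CpGs, differences of -6.31 to 5.92 points and adjusted p of 0.830 to 0.970. In one of them, at chr2:174328742-174328781, the first KO library alone stood high, at 40.0% with 26.3% in the second KO library, against 25% and 27.1% in WT libraries. Of the others, the 7 CpGs at chr2:174287606-174287815 stood at 39.1% and 43.0% in KO libraries, against 40.6% and 35.2% in WT libraries, and the 5 at chr2:174326735-174326988 at 55.3% and 59.2% in KO libraries, against 65.9% and 51.7% in WT libraries. The last of the 4, at chr2:174336048-174336311, was lower in both KO libraries, at 55.7% and 46.4%, against 56.3% and 57.1% in WT libraries. About the most downstream start, which drives the transcript for the G protein subunit itself, a tile of 91 CpGs was bare, with means of 0.294% and 0.0905% in KO libraries, against 0.0407% and 0.238% in WT libraries. In both genotypes methylation was thus near 0 a short distance past the exon 1A block.

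**Figure D2:**
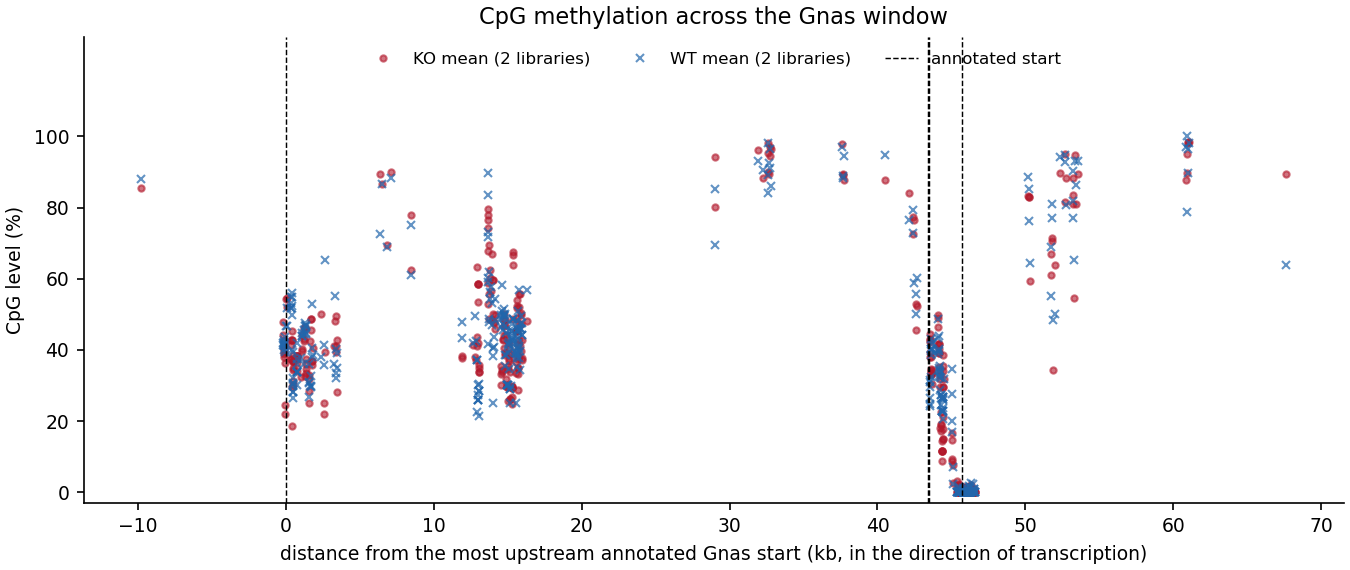
Methylation level of each analysed CpG in the Gnas window (%, KO mean as circles, WT mean as crosses, 2 libraries each) against its distance from the most upstream annotated start (kb), with annotated starts as dashed lines. Dense groups at intermediate level stand at the upstream start, between about 12 and 16 kb, and next to the middle starts, while CpGs at the most downstream start lie near 0.

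Igf2r encodes the cation-independent mannose 6-phosphate receptor, which takes up and degrades IGF2, and in mouse it is expressed mainly from the maternal allele. Airn is the antisense lncRNA whose start lies in an Igf2r intron and which silences Igf2r on the paternal chromosome. The block of 30 CpGs at chr17:12741598-12742949 begins just past the Airn start at position 12741311. It stood at 34.9% and 48.1% in KO libraries, against 46.2% and 43.4% in WT libraries. The first KO library was the lowest and the second the highest, and the difference was -3.18 points (95% interval -11.3 to 4.93, adjusted p = 0.849). Without the first KO library it was 3.30 points. No CpG of the 300-base Airn promoter itself was among those analysed.

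At the Igf2r start a block of 25 CpGs, chr17:12769446-12769710, stood at 31.8% and 34.8% in KO libraries, against 43.8% and 27.8% in WT libraries. Both KO libraries lay between the WT libraries, and the difference was -0.817 points (95% interval -9.74 to 8.11, adjusted p = 0.976). It was 5.42 points without the first WT library and 0.774 points without the first KO library. Directly upstream of it, 12 CpGs at chr17:12769733-12769830 stood at 30.7% and 41.9% in KO libraries, against 50.4% and 42.9% in WT libraries. Here both KO libraries were below both WT libraries, as in 20.6% of all blocks, though the second KO library nearly met the second WT library. The difference of -10.1 points (95% interval -19.9 to -0.310) had an unadjusted p of 0.0445 and an adjusted p of 0.516, and it was -15.2 to -3.96 points when one library was left out. This was the one member block that Fisher's exact test called. In the Igf2r promoter sequence printed above, the CpG 124 bp before the start, picked after its values were seen, stood at 26.9% and 52.4% in KO libraries, against 69.2% and 61.9% in WT libraries. The difference was uneven over the block. Its CpG at -50 bp stood at 39.4% and 42.3% in KO libraries, against 45.8% and 35.1% in WT libraries.

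The short block of 5 CpGs at chr17:12769205-12769250, inside Igf2r, had the widest spread of the 24, at 42.0% and 33.9% in KO libraries, against 48.3% and 19.8% in WT libraries. The WT libraries were the highest and the lowest of the 4. Another block of 5 CpGs lay below the far end of Igf2r, at chr17:12675420-12675491, at 38.8% and 51.3% in KO libraries, against 42.0% and 39.6% in WT libraries. Over the whole windows, mean levels of Igf2r were 56.8% and 60.6% in KO libraries, against 61.9% and 57.5% in WT libraries. Those of Airn, which shares many of these CpGs, were 47.6% and 51.7% in KO libraries, against 54.0% and 49.1% in WT libraries. At both genes the first KO library and the second WT library were the lower of their pairs.

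**Figure D3:**
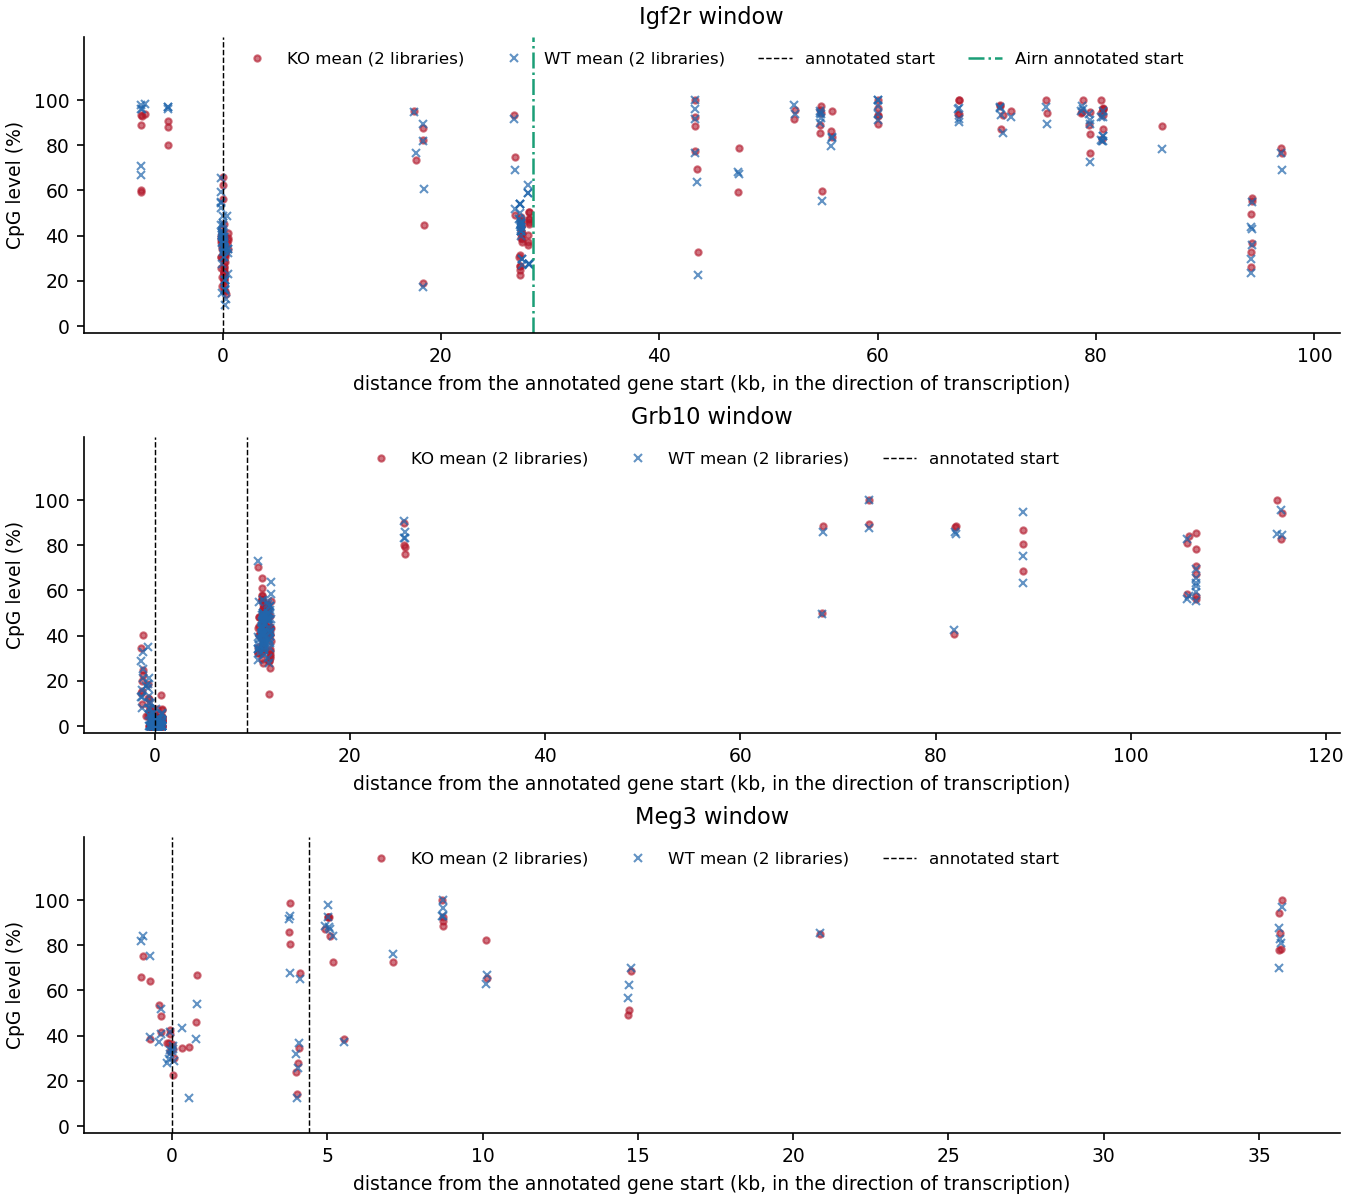
Methylation level of each analysed CpG (%, KO mean as circles, WT mean as crosses, 2 libraries each) in the windows of Igf2r, Grb10 and Meg3 against distance from the gene start (kb, positive in the direction of transcription). Black dashed lines mark annotated starts and the green line the antisense Airn start; intermediate CpGs gather at the Igf2r, Airn and Meg3 starts and about 11 kb into Grb10, CpGs at the upstream Grb10 start lie near 0, and CpGs further into the bodies are mostly above 60%.

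Grb10 encodes an adaptor protein that binds and restrains the insulin and IGF1 receptors, and it is expressed from the maternal allele in most tissues. Its block at chr11:12025522-12026880 held 82 CpGs, the second most of any block in the genome, and lies just past the downstream annotated start at position 12027971, 10548 to 11906 bp into the gene. The level was 44.4% and 46.8% in KO libraries, against 43.9% and 43.8% in WT libraries. KO and WT libraries did not overlap, KO being higher by 1.76 points (95% interval -1.20 to 4.72, adjusted p = 0.742). Within the block the tile differences had opposite signs. The tile with 52 of these CpGs stood at 46.0% and 47.8% in KO libraries, against 42.5% and 41.8% in WT libraries, and had the lowest p of the 105 member tiles (0.00163, adjusted p = 0.317). The neighbouring tile with 30 CpGs stood at 41.0% and 45.02% in KO libraries, against 46.8% and 48.3% in WT libraries (unadjusted p = 0.0346, adjusted p = 0.760). Both tiles separated the genotypes, by 4.73 points and by -4.41 points. The share of all tiles that separate the genotypes was not counted. A further Grb10 block of 5 CpGs near the far end of the gene, chr11:11930715-11930783, stood at 70.6% and 59.6% in KO libraries, against 48.9% and 73.4% in WT libraries, so that both KO libraries lay between the WT libraries. At the upstream start a tile of 78 CpGs was bare, at 1.60% and 1.53% in KO libraries, against 1.52% and 0.960% in WT libraries.

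Plagl1 encodes a zinc finger transcription factor that restrains cell growth and is expressed from the paternal allele. Its single block, 36 CpGs at chr10:13090813-13091111, spans the start and continues from the promoter printed above. It stood at 39.2% in both KO libraries, against 40.3% and 34.5% in WT libraries. The difference was 1.74 points (95% interval -3.27 to 6.75, adjusted p = 0.874), with the KO libraries between the WT libraries, and -1.14 points without the second WT library. None of the 52 analysed CpGs of the window was below 20%.

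Peg13 is a paternally expressed lncRNA that lies within an intron of Trappc9. The table used gives no strand for it. Its main block, 27 CpGs at chr15:72809600-72810037, lies in the gene near the end of higher coordinate. It stood at 37.9% and 34.5% in KO libraries, against 38.7% and 40.7% in WT libraries. The KO libraries were both below the WT libraries, and the difference over summed reads was -3.43 points (95% interval -8.22 to 1.35, adjusted p = 0.697). The mean over the 46 analysed CpGs of the window had the same order, with 44.7% and 41.8% in KO libraries, against 44.8% and 45.7% in WT libraries. That difference of -2.03 points was the lowest of the 10 genes (exact permutation test, two-sided, p = 0.33, the smallest possible). The first KO library and the first WT library nearly touched. A block of 6 CpGs below the gene, chr15:72802216-72802583, stood at 44.4% and 34.7% in KO libraries, against 49.4% and 33.9% in WT libraries, with wide overlap.

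Slc38a4 encodes an amino acid transporter that is abundant in liver, and it is paternally expressed in some mouse tissues. Its allelic expression in these livers was not measured. Its 3 blocks were small, with 5 to 9 CpGs. The block of 5 CpGs spanning the start, chr15:97055916-97056253, stood at 43.7% and 62.3% in KO libraries, against 48.5% and 38.6% in WT libraries. The difference was 10.4 points with a wide interval (95% interval -4.98 to 25.8, adjusted p = 0.719). The second KO library stood above the other 3 libraries, and the first KO library lay between the WT libraries. Inside the gene, 7 CpGs at chr15:97055184-97055320 stood at 34.6% and 38.0% in KO libraries, against 37.6% and 40.9% in WT libraries. A further 9 CpGs at chr15:97053392-97054213 stood at 52.2% and 49.0% in KO libraries, against 55.5% and 49.0% in WT libraries. These neighbours were each lower in KO on summed reads, opposite in sign to the block at the start, and had adjusted p of 0.877 and 0.950. Near the most downstream annotated start, a tile of 18 CpGs in the gene was low. It stood at 11.4% and 11.6% in KO libraries, against 7.81% and 13.2% in WT libraries.

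Dlk1 encodes a transmembrane protein of the Notch ligand family that is high in fetal liver, and Meg3 is the maternally expressed lncRNA of the same cluster. The Dlk1 window was mostly bare, with 62 of 98 CpGs below 20%. Just downstream of the Dlk1 start, a tile of 35 CpGs stood at 2.37% and 2.62% in KO libraries, against 2.66% and 2.20% in WT libraries. The one Dlk1 block, 6 CpGs at chr12:109459855-109460426 inside the gene, stood at 54.5% and 48.9% in KO libraries, against 55.9% and 48.7% in WT libraries. Over the whole Dlk1 window both KO libraries were slightly higher, at 28.1% and 27.8%, against 27.4% and 27.5% in WT libraries. On summed reads that window had the lowest p of the 10 (0.0586, adjusted p = 0.990).

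The Meg3 block at the start, 18 CpGs at chr12:109539995-109541806, stood at 43.5% and 41.3% in KO libraries, against 39.5% and 41.2% in WT libraries. Both KO libraries were above both WT libraries by a narrow gap, and the difference was 2.06 points (95% interval -4.44 to 8.56, adjusted p = 0.887). A second Meg3 block of 5 CpGs at chr12:109544793-109545127 stood at 42.4% and 50.6% in KO libraries, against 41.7% and 50% in WT libraries. There the spread within a genotype exceeded the difference of 1.26 points. In the whole Meg3 window 15 of 51 CpGs were above 80% and 1 was below 20%.

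Rasgrf1 encodes a guanine nucleotide exchange factor for Ras and is paternally expressed in neonatal brain. It was the one member with no block in its window. Of its 98 analysed CpGs, 58 were below 20%, 26 above 80% and 12 between 25% and 75%. The tiles at the start, with 42 CpGs, stood at 2.17% and 2.42% in KO libraries, against 2.75% and 3.26% in WT libraries. The KO libraries were below the WT libraries there, at levels close to 0 in all 4, and how often tiles do so was not counted.

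**Figure D4:**
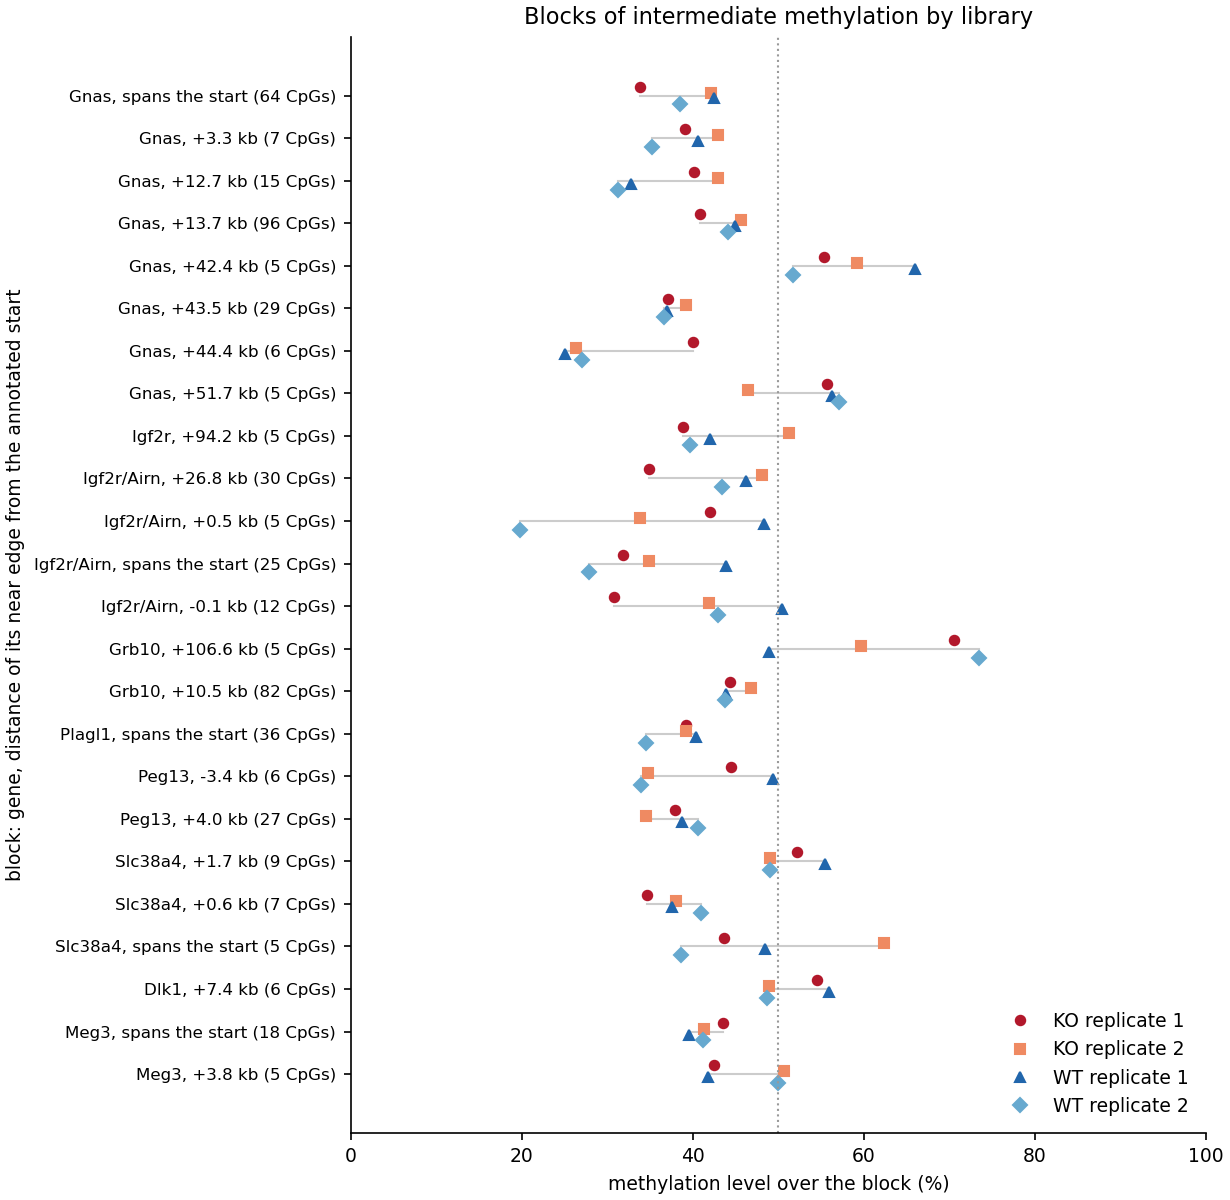
Methylation level (%) of the 24 blocks in the member windows, one symbol per library, KO symbols drawn above WT symbols in each row, and a grey bar from the lowest to the highest library; distances are from the annotated start (for Peg13 from its lower coordinate, for Igf2r/Airn from the Igf2r start). Long blocks such as Gnas with 96 CpGs and Grb10 with 82 have all 4 libraries within 5 points, and most blocks lie left of the dotted line at 50%.

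Taken as a group, 13 of the 24 blocks were higher and 11 lower in KO. Their median difference was 0.794 points, against -0.385 points over all 6063 blocks. Among the 11 with at least 10 CpGs, 5 were higher and 6 lower, with a median of -0.817 points, against -2.03 points over the 777 such blocks of the genome, of which 275 were higher and 502 lower. Both KO libraries were above both WT libraries at 4 of the 24 and below them at 3, against 18.6% and 20.6% of all blocks. The 95% interval contained 0 at 22 of the 24 and lay wholly within 10 points of 0 at 8. The range over the 4 libraries had a median of 9.80 points, against 11.6 points over all blocks. For blocks of at least 10 CpGs the medians were 6.12 and 10.6 points. The dispersion before shrinkage, which sets the spread within genotypes against counting error, went the other way. Its median was 2.27 in member blocks, against 1.498 over all blocks. For blocks of at least 10 CpGs it was 3.67 in member blocks, against 2.499 over all such blocks. All 4 libraries lay between 30% and 60% in 18 of the 24 (75%), against 46.3% of all blocks. These are descriptions, since longer blocks have more reads and therefore a smaller counting error.

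**Figure D5:**
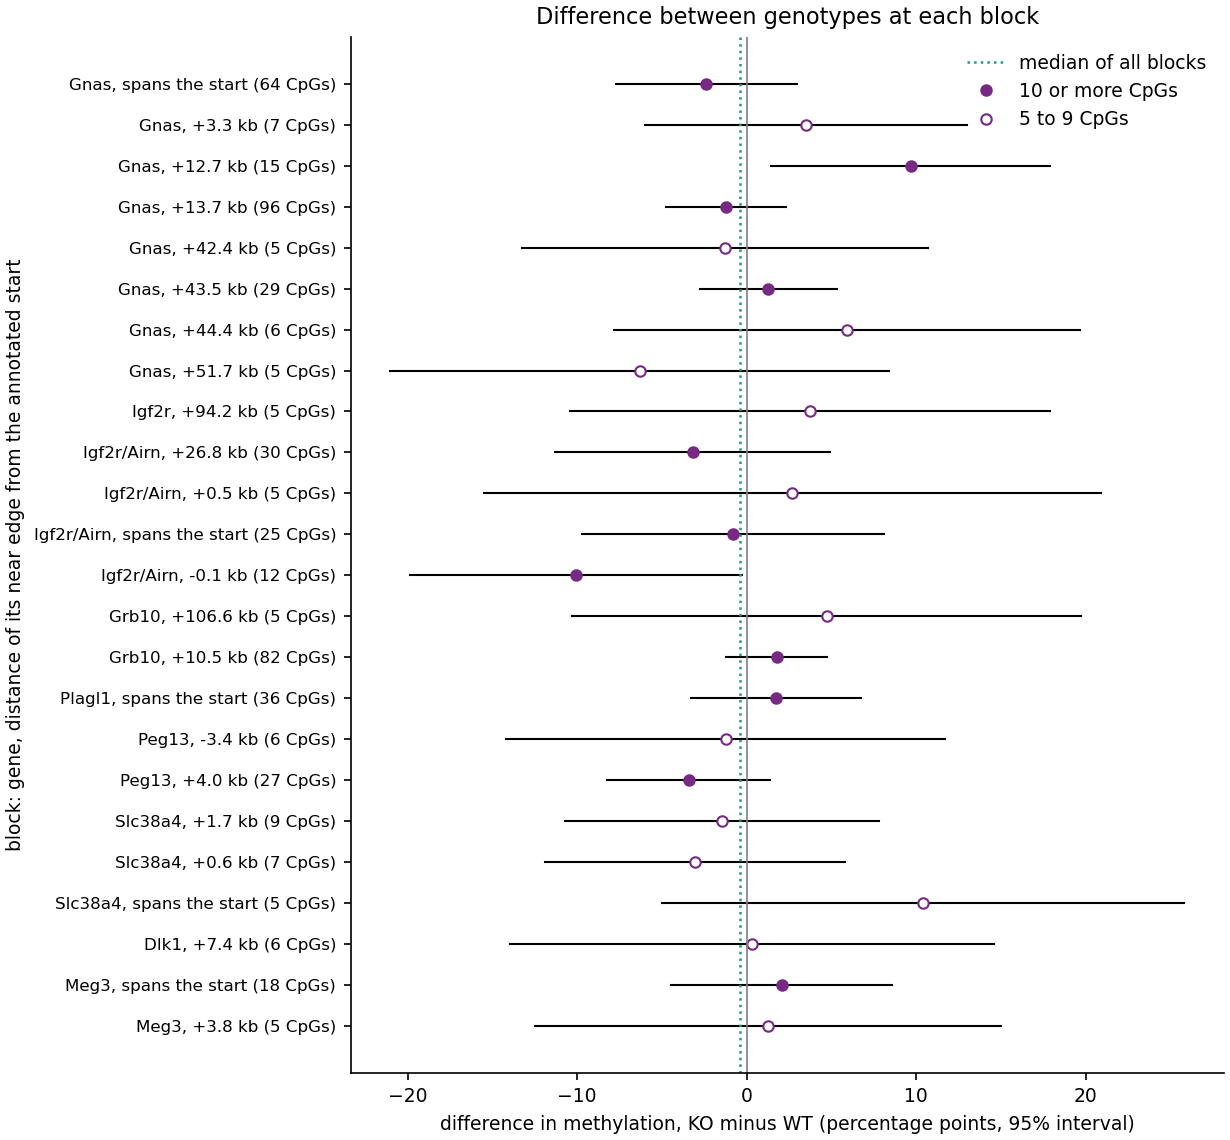
Difference in methylation at each of the 24 blocks, KO minus WT (percentage points), with its 95% interval from the quasi-binomial model; filled points have at least 10 CpGs and open points 5 to 9, and the dotted line is the median of all 6063 blocks at -0.385. Intervals cross 0 except at the 15-CpG Gnas block (9.66 points) and the 12-CpG block upstream of Igf2r (-10.1 points).

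Single CpGs were compared where each library had 20 or more reads. The largest difference was at position 12742473 of chromosome 17, in the block past the Airn start. It stood at 20.5% and 32.3% in KO libraries, against 59.5% and 48.4% in WT libraries, a difference of -29.5 points (unadjusted p = 0.00302, adjusted p = 0.743). The CpG 5 bp on differed by -26.1 points. In the other domains the CpG that differed most did so by -21.9 points in Gnas, 21.7 in Grb10, -20.1 in Slc38a4, -18.2 in Peg13, 16.0 in Meg3, 12.1 in Rasgrf1, 9.33 in Plagl1 and 7.96 in Dlk1. All of these had an adjusted p of 0.743. Of the 61 CpGs in the genome that split the libraries into levels of 10% or less and of 70% or more, 0 lay in a member window.

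Genes in the same clusters were read beside the members, from a list of 24. Of the 23 measured, 13 were higher and 10 lower in KO. The median over them was 0.113 points, and none was called. Of 33 other imprinted genes, 9 were higher and 24 lower, with a median of -0.808 points, and none was called. Some of these windows share CpGs, as do Nnat with Blcap, Mcts2 with H13, Zrsr1 with Commd1 and Peg10 with Sgce. Among the cluster genes, the Trappc9 window holds the main Peg13 block. The counts are therefore not of separate loci. The 10 members had a median of 0.221 points and all gene windows one of 0.203 points, with 18105 higher and 12457 lower. At an unadjusted p under 0.05 there were 1 of the cluster genes (4.35%) and 2 of the other imprinted genes (6.06%), against 4.58% of all gene windows. Among the cluster genes, Begain held a block of 28 CpGs at 45.5% and 39.2% in KO libraries, against 64.3% and 44.2% in WT libraries. The first WT library stood above the other 3, and the difference was -11.3 points (adjusted p = 0.513). The other imprinted genes held 13 blocks of at least 10 CpGs, 3 higher and 10 lower in KO, with levels of 23.6% to 57.7% and adjusted p of 0.35 or more. The lowest p among them was at the block shared by Peg10 and Sgce, at 23.6% and 29.4% in KO libraries, against 36.9% and 38.4% in WT libraries.

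Outside the member windows, autosomal blocks whose 4 libraries all lay within 35% to 65% were ranked by number of CpGs. The first 8 genes were Zmiz1, Prob1, Fut11, Gata4, Cbx6, Lrfn4, Nnat and Prkcz, with 38 to 78 CpGs. Nnat is imprinted as well. All 8 blocks were lower in KO, by differences of -2.59 to -8.99 points, with adjusted p of 0.132 to 0.769. The first WT library was the highest of the 4 at each of them but Gata4. The member blocks of 96 and 82 CpGs, at -1.25 and 1.76 points, lay outside that range. So did those of 64 and 29 CpGs at Gnas and 36 at Plagl1, at -2.38, 1.27 and 1.74 points. Those of 30 CpGs past the Airn start and 27 at Peg13, at -3.18 and -3.43 points, lay within it. The member blocks were not held to the 35% to 65% rule. Those of 64 CpGs at Gnas, 36 at Plagl1, 30 past the Airn start and 27 at Peg13 each had a library just under 35%. Member blocks of 36 or fewer CpGs were also shorter than any of the 8. The difference between these genes and the members was not tested.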

How the data were processed

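Per the labels' protocols, libraries were built from TaqI and MspI fragments of liver DNA and amplified after bisulfite conversion. The authors deposited 2 tracks per library on build mm10, made with GBSA per the file headers: a methylation level as a fraction, signed by strand, and a read depth (coverage) with the same sign. BWA 0.7.12 and MACS appear in the submitters' processing notes, with no role, and other steps were not given in the sources used here.

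The product of level and depth, whole at 100% of positions within 1e-06, was taken as the methylated reads. Strands were summed per CpG. For 5 methylated of 10 reads the Clopper-Pearson interval (95%) spans 18.7% to 81.3%, and 0 of 10 is compatible with 30%. Amplified reads are not independent, so this is counting error alone. Reads were summed over tiles of 1 kb, gene windows, blocks and promoters, each with at least 3 analysed CpGs (5 for blocks). The model used the Pearson dispersion shrunk with limma 3.58.1 (R 4.3.3) and held at 1 or above, with a two-sided F test and Benjamini-Hochberg adjustment over all features of a kind. CpGs without any methylated read, or without any unmethylated one, could not be tested. Tables and figures were made in Python 3.11.15.

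The members and lists were chosen with earlier results of these data known, and the promoter windows were added after the files were seen. Named within a member by rule were its blocks, any called feature and up to 3 CpGs of largest difference. Other single CpGs named in the Gnas and Igf2r windows fall outside that rule and were picked with their values known. The labels do not tie libraries to separate animals, so p-values cannot be said to measure a spread between animals. Those of the model rest on the spread between these libraries, shrunk toward that typical of all features of a kind. For blocks that prior had 10.1 degrees of freedom, more than these libraries supply. Dispersion thereby went from 6.59 to 2.79 at the 12-CpG block upstream of Igf2r. At the 15-CpG Gnas block it went from 0.330 to 1.76. Gene coordinates and promoter sequences are from RefSeq on GRCm38.p6. Exons were not analysed here, and blocks are placed by distance to annotated starts.

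As a description of the tissue, windows of hepatocyte marker genes had a median level of 65.2% in KO and 64.3% in WT (8 of 8 genes measured). Leukocyte marker windows stood at 82.5% in KO and 82.8% in WT (6 genes), endothelial and stellate ones at 48.6% in KO and 48.2% in WT (5 genes), and cholangiocyte ones at 44.6% in KO and 45.3% in WT (4 genes).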

Additional observations from a re-analysis of the deposited data

How the results depend on the processing

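No member CpG, tile, gene window, block or promoter was called under other coverage minimums, other minimum differences, the other dispersion prior, other block limits, the gene body alone or without any one library. Promoters were not run at other coverage minimums, and where a library was left out the lone one of its genotype was assumed to vary like the others. The exception was Fisher's exact test on summed reads, which called 1 block. In the main setting no member tile or gene window differed by 10 points, so none could be called at that minimum by either test. Without the minimum, Fisher's exact test put 3 member gene windows, 1 tile and 2 blocks at an adjusted p under 0.05. At an unadjusted p under 0.05 it held 3 of the 10 windows, against 23.9% of all gene windows. With the replicate number as a block in the model, 0 member features of any kind were called. Deviations of same-numbered libraries correlated at -0.0507 over 6063 blocks. With 2 libraries per genotype the deviations mirror each other, so this single value cannot tell whether the numbers pair the samples. Over the genome, calls moved far more: for CpGs 9, against 508 by Fisher's test, 102 with the other prior, 784 with the replicate block and 0 without any one library. For tiles they numbered 144, against 1231 by Fisher's test, 418 with the replicate block and 0 to 2 without one library. For blocks there were 22, against 592 by Fisher's test, 37 with the replicate block and 50 to 69 without one library. For gene windows there were 0, against 90 by Fisher's test and 0 to 3 without one library, and for promoters 0, against 29 by Fisher's test and 7 with the replicate block. The mean difference over the 10 genes was -0.130 points, 0.348 at 5 reads per CpG, -0.727 at 20 reads and -0.552 to 0.292 without one library. Of the 11 longest blocks, 6 kept their sign without any one library. The other 5 changed sign, without the first KO library at the Gnas, Airn and Igf2r blocks, the first WT library at Igf2r too, and the second WT library at Plagl1. Their differences then ran from -6.59 to 1.74 points at the Gnas block of 64 CpGs, -3.59 to 1.17 at that of 96, -9.94 to 3.30 past the Airn start, -10.6 to 5.42 at the Igf2r start and -1.14 to 4.69 at Plagl1. With summed reads or other coverage minimums, the differences of Grb10, Dlk1 and Rasgrf1 moved by more than the SD between libraries. That of Rasgrf1, 0.171 points, became -1.17 with summed reads, 1.197 at 5 reads and -0.515 at 20 reads. Single CpGs, with a median of 21 to 25 reads, were limited by depth, and regions with no analysed CpG, such as the Airn promoter, gave no value.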

Other observations

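Beyond the 10 kb on either side of the genes, within 50 kb of them, further blocks lay in the domains of Rasgrf1 and of Dlk1 with Meg3. A block of 5 CpGs at chr9:89878077-89878314, 31194 bp below the lower end of Rasgrf1, stood at 46.5% and 50.7% in KO libraries, against 37.8% and 42.1% in WT libraries. Both KO libraries were above both WT libraries, by 8.71 points (95% interval -3.88 to 21.3, adjusted p = 0.706). The paternally methylated region that controls Rasgrf1 is known to lie upstream of the gene, and whether this block belongs to it was not tested.

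Between Dlk1 and Meg3, 6 CpGs at chr12:109499810-109500543 stood at 53.0% and 52.0% in KO libraries, against 48.4% and 57.8% in WT libraries. Another 5 CpGs at chr12:109509083-109509218 stood at 49.4% and 41.8% in KO libraries, against 53.6% and 59.3% in WT libraries. The first overlapped between genotypes and the second did not, with adjusted p of 0.983 and 0.699. Past the far end of Meg3, 7 CpGs at chr12:109608071-109608201 stood at 35.5% and 47.3% in KO libraries, against 58.5% and 56.1% in WT libraries. That difference was -15.1 points (95% interval -29.8 to -0.478, adjusted p = 0.526). Further on, 5 CpGs at chr12:109614563-109614705 stood at 58.8% and 53.5% in KO libraries, against 54.1% and 61.5% in WT libraries (difference -1.95 points, adjusted p = 0.949), and the genotypes overlapped.

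Levels were also taken on each strand alone. Averaged over libraries, the forward strand minus the reverse strand ran from -6.24 points (the 15-CpG Gnas block) to 6.89 points (the 25-CpG Igf2r block) over the 11 blocks of at least 10 CpGs. It was 0.922 points at the 96-CpG Gnas block and -5.05 points at the 82-CpG Grb10 block. In the first KO library the Igf2r block stood at 38.2% on the forward and 19.6% on the reverse strand. At blocks under 10 CpGs the forward minus reverse difference ran from -12.5 points, at an Igf2r block, to 21.4 points, at the Gnas block chr2:174336048-174336311, and 1 Gnas block had no reverse-strand reads.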
